A study of Mus musculus with 4 samples.

Results

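The 10 glycolysis genes examined here were Slc2a1, Hk2, Pfkl, Aldoa, Gapdh, Pgk1, Pgam1, Pkm, Ldha and Slc16a3, chosen by their gene symbols among the 32285 features counted in single cells of mouse brain. The symbol Aldoa belongs to 2 features, so the 10 symbols cover 11 features. The second Aldoa feature held 3 to 10 UMIs (unique molecular identifiers, which count an RNA molecule a single time however often it was read) in the microglia of each mouse and was not tested, and Aldoa stands below for the other one. The study made 4 libraries, 1 per mouse, from brain cells sorted for CD45 and CD11b. Both PRMT1FL mice carried floxed Prmt1 alleles, and both PRMT1Cx3cr1-KO mice carried the same alleles with the Cx3cr1-CreERT driver, a tamoxifen-inducible recombinase that acts in cells expressing Cx3cr1 and so is not limited to microglia. All 4 mice were on the C57BL/6 background and received 0.2% cuprizone (CPZ), a compound that binds copper and strips axons of myelin, for 5 wk. The methods of the study place tamoxifen at 5 to 6 wk of age and the diet after it, whereas the labels give that age for the diet. A control on normal chow was not analysed here.

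Glycolysis turns glucose into pyruvate and yields ATP without oxygen. Slc2a1 (GLUT1) carries glucose into the cell, Hk2 phosphorylates it, and Pfkl is a subunit of the phosphofructokinase that commits it to the pathway. Aldoa splits the sugar, Gapdh, Pgk1, Pgam1 and Pkm convert the resulting trioses to pyruvate, Ldha reduces pyruvate to lactate, and Slc16a3 (MCT4) exports lactate. Microglia are known to use this route heavily when they are activated, and several of these genes are targets of the hypoxia-inducible factor HIF-1, which binds DNA at the core letters ACGTG.

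In GRCm38 (GENCODE vM21) the genes lay on 8 chromosomes. Slc2a1 (ENSMUSG00000028645) lay at chr4:119108711-119137983 on the plus strand and Hk2 (ENSMUSG00000000628) at chr6:82725025-82774454 on the minus strand. Aldoa (ENSMUSG00000030695) lay at chr7:126795234-126800751 on the minus strand and Slc16a3 (ENSMUSG00000025161) at chr11:120948480-120960868 on the plus strand. The reads of a 3′ library come from transcript ends, and some ends are not unique. A 50-base stretch of the last 500 bases of the transcripts was shared with 218 other genes for Gapdh, of which 209 were pseudogenes and 5 were among the features, and with 167 for Ldha, of which 136 were among the features. Fewer genes shared one with Pkm (7), Aldoa (6, of which 1 was among the features), Pgk1 (5) and Pgam1 (4). No such stretch was found for Slc2a1, Hk2, Pfkl or Slc16a3. How the counting treated reads matching several places can therefore bear on all members but those last 4 by this measure.

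The 250 bases before the transcription start, taken from RefSeq promoters of GRCm38.p6, are shown for 3 members because they hold the HIF-1 core letters more than once and lie outside annotated exons. Capitals mark ACGTG and its reverse complement CACGT, and CACGTG where both overlap. Hk2 is at chr6:82774455-82774704 on the minus strand, Pgk1 at chrX:106186850-106187099 on the plus strand and Ldha at chr7:46845554-46845803 on the plus strand.
Hk2: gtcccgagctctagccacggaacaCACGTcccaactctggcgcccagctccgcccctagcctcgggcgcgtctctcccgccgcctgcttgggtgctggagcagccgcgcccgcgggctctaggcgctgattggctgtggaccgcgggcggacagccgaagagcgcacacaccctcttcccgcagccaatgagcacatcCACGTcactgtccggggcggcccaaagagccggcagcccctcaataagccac
Pgk1: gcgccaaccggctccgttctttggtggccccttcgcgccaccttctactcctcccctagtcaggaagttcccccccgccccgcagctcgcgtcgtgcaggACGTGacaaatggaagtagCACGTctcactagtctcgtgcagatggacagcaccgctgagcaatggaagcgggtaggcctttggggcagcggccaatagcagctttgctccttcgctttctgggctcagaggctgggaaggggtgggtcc
Ldha: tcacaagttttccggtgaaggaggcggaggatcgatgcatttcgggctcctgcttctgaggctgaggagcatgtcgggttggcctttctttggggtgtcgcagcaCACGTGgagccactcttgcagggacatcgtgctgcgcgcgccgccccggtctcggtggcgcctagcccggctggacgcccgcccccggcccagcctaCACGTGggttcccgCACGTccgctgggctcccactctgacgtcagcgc
On both strands, ACGTG was found in 9 of the 14 RefSeq promoters of the members (64.3%), in at least 1 promoter of 8 of the 10 genes. It was found in 16.6% of 32851 promoters of the same length, a set that leaves out a chromosome holding no member. Overlapping Aldoa promoters share a match, and the sets were not matched for base composition. The E-box CACGTG, which contains ACGTG on both strands and is counted in it, was present in 6.02% of that set. Among the members it was present only in the Ldha promoter shown. No binding was measured in these libraries, so the letters are given as a description.

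After limits of 200 to 6000 genes and at most 10% mitochondrial UMIs, 40869 cells remained, and the microglia among them numbered 10981 and 7814 (PRMT1FL) and 10188 and 10677 (PRMT1Cx3cr1-KO). Their UMIs summed to between 72926464 and 93990853 per mouse. Any pair of libraries shared 31 to 46 cell barcodes, at most 0.563% of the smaller one. In the microglia of PRMT1FL mice Prmt1 was at 90.9 and 83.9 CPM (UMIs of a gene scaled to the same total in every sum), and in those of PRMT1Cx3cr1-KO mice it was at 70.3 and 70.6, a log2 fold change of -0.39 (SE 0.07, adjusted p = 0.0787, edgeR quasi-likelihood test). The deleted exons are not given in the sources used here, and 3′ tags outside them would not report the deletion. Cx3cr1, whose promoter drives the recombinase, was at 1443 and 1541 CPM against 847 and 836 (-0.90, adjusted p = 0.0236, edgeR). The genotypes differ in the driver as well as in Prmt1. Effects of the driver or of lower Cx3cr1 thus cannot be told apart from those of PRMT1 loss. The summed level of 5 erythroid genes was 241.8 and 94.1 CPM for PRMT1FL against 0.061 and 0.021 for PRMT1Cx3cr1-KO, and its part in the results below was not tested. The states of microglia used below were found by clustering without the members or the other listed glycolysis genes, and they were named only from marker genes. A1-like cells (1705) expressed proliferation genes and interferon-like cells (782) interferon-induced genes. D/E-like cells (7940) were named from 11 listed markers and had Crybb1, Txnip and P2ry12 among their leading genes. That list joins markers of the study's clusters D and E with Gdf15, Il7r and Pdlim4, which the study's text does not name for them. Il7r and Pdlim4 were themselves leading genes of these cells. The study's D markers summed to 3252 CPM there against 1327 in cluster 3. Its E markers summed to 4248 CPM against 4376 in cluster 3, so they were not particular to D/E-like cells. Clusters 1, 2, 3 and 5 held 12036, 4219, 4758 and 7710 cells and stayed unnamed. Cluster 2 was led by Gpnmb, Mmp12 and Spp1, cluster 3 by Il12b, Cxcl2 and Il1b, and cluster 5 by haemoglobin and cell cycle genes. B1-like cells (510) had 6 cells in PRMT1FL mouse 2 and entered no comparison of their own.

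Together the members took 0.575% and 0.564% of the microglial UMIs with PRMT1 intact (PRMT1FL), and 0.517% and 0.561% with PRMT1Cx3cr1-KO. The question of the main comparison was whether loss of PRMT1 in these cells goes with altered levels of the pathway. Summed over all microglia, none of the 10 members passed an adjusted p of 0.05 in the quasi-likelihood test of edgeR, adjusted by Benjamini-Hochberg over 13847 genes, of which 0.491% were called. At an unadjusted p under 0.05, 4 members were lower in PRMT1Cx3cr1-KO microglia, beside 19.7% of all genes in either direction, and DESeq2 called 2 of the 10, beside 5.2% of all genes. All 10 estimates were below 0, with a median of -0.14 on the log2 scale against -0.0037 over all genes tested. The sign depended on the scaling for 4 of them: Pgam1 was above 0 with library sums only, and Pgam1, Hk2, Aldoa and Slc16a3 were above 0 with each cell weighted equally. In CPM, 6 of the 10 had both PRMT1Cx3cr1-KO mice below both PRMT1FL mice, beside 17.3% of all genes tested. With 2 mice against 2, an exact two-sided permutation test of a single value cannot give a p below 0.333.

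At the entry of the pathway, Slc2a1 was at 77.9 and 69.3 CPM with PRMT1FL and at 63.7 and 47.4 CPM with PRMT1Cx3cr1-KO. The genotypes did not overlap, and the log2 fold change was -0.48 (SE 0.16, edgeR adjusted p = 0.177). The Slc2a1 estimate depended on which PRMT1Cx3cr1-KO mouse was kept, at -0.73 without mouse 1 and at -0.26 without mouse 2. Each of these fits keeps a single PRMT1Cx3cr1-KO mouse and so does not measure the spread between such mice. Hk2 was at 274 and 267 CPM against 267 and 269. The 4 values of Hk2 lay within a few percent of one another, at a log2 fold change of -0.09 (SE 0.06, adjusted p = 0.469, edgeR). Pfkl was at 106 and 92.4 CPM against 85.4 and 84.3, with no overlap (-0.30, SE 0.08, adjusted p = 0.136, edgeR).

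Among the enzymes of the lower pathway, Pkm, the pyruvate kinase of most tissues, was at 919 and 836 CPM in PRMT1FL mice against 755 and 776 (log2 fold change -0.27, SE 0.08, edgeR adjusted p = 0.148). Pgk1, which makes the first ATP of the pathway, was at 270 and 254 CPM against 233 and 241 (-0.22, SE 0.07, adjusted p = 0.155, edgeR). Neither gene overlapped between genotypes, and neither passed the adjusted threshold. Aldoa was at 757 and 756 CPM against 717 and 752, and Gapdh at 2357 and 2415 against 2120 and 2469. Gapdh thus varied more between the 2 PRMT1Cx3cr1-KO mice than between the genotype means. Pgam1 was at 332 and 319 CPM against 315 and 346, and its estimate of -0.05 (SE 0.07) was the smallest of the 10. At the exit, Ldha was at 549 and 524 CPM against 509 and 516 (-0.14, adjusted p = 0.318, edgeR) and Slc16a3 at 106 and 103 against 101 and 107 (-0.08, adjusted p = 0.474, edgeR). Slc16a3 overlapped between genotypes, whereas Ldha did not.

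**Figure D1:**
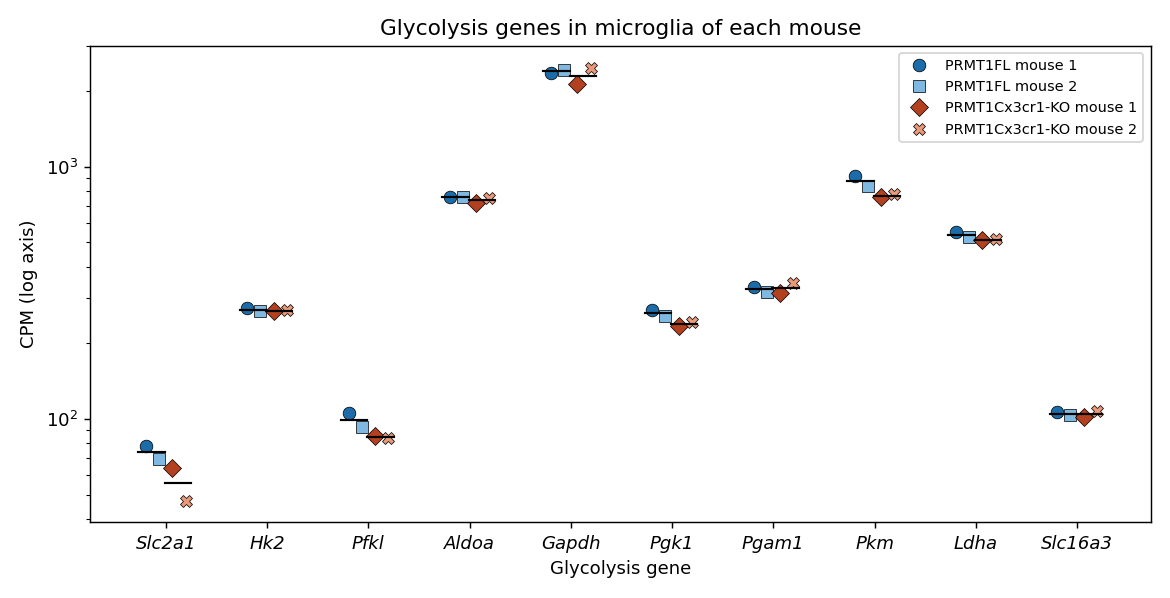
Level of each glycolysis gene in the summed microglia of the 4 mice, in CPM on a log axis, with each point a mouse and each black line the mean of a genotype. Slc2a1 shows the widest spread, from 47.4 to 77.9 CPM, and Hk2 a narrow one, from 267 to 274 CPM.

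The rest of the pathway was read from lists of other genes, whose counts at an unadjusted p stand beside the 19.7% of all genes. Of 25 other glycolysis genes tested, none passed in either direction by edgeR, with a median of -0.09 on the log2 scale and with 10 at an unadjusted p under 0.05. Basigin (Bsg), the partner that carries lactate transporters to the membrane, was at 708 and 723 CPM against 593 and 595 (-0.34, SE 0.07, adjusted p = 0.0922, edgeR). The glucose transporter Slc2a6 was at 44.5 and 39.0 CPM against 64.2 and 70.9 (0.62, SE 0.08, adjusted p = 0.0509, edgeR). These 2 genes thus lay on opposite sides of 0, each with no overlap between genotypes. For the fates of pyruvate, none of 12 genes passed in edgeR (2 at an unadjusted p under 0.05), and the mitochondrial pyruvate carrier Mpc1 (353 and 353 CPM against 445 and 543; 0.41, adjusted p = 0.103, edgeR) and the dehydrogenase kinase Pdk1 (62.1 and 60.3 against 53.7 and 53.9; -0.26, adjusted p = 0.103, edgeR) had the largest estimates. None of 8 pentose phosphate genes passed (median 0.04, 4 at an unadjusted p under 0.05), among them Taldo1 at 0.47 (adjusted p = 0.101, edgeR) and Pgd at 0.31 (adjusted p = 0.125, edgeR), both enzymes of that branch.

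None of 16 citric acid cycle genes passed, and none of them reached an unadjusted p under 0.05 in edgeR. Dlst, a subunit of the oxoglutarate dehydrogenase complex, was at -0.13, and Sucla2, a succinate-CoA ligase subunit, was at 0.16. Of 13 genes of the HIF family and other regulators, none passed in edgeR and 5 had an unadjusted p under 0.05, with Max at -0.31 and Mlxipl, a glucose-responsive factor, at -0.26. Of 15 HIF targets outside glycolysis, 1 was called lower and none higher, with a median of -0.24 and with 8 at an unadjusted p under 0.05. That gene was Ankrd37, at 9.19 and 9.79 CPM in PRMT1FL mice against 5.60 and 5.98 (-0.79, SE 0.08, adjusted p = 0.0304, edgeR). The angiogenic factor Vegfa (-0.98, adjusted p = 0.159, edgeR) and the mitophagy receptor Bnip3 (-0.46, adjusted p = 0.125, edgeR) did not pass. Of 10 reference genes none passed (median 0.06, 1 at an unadjusted p under 0.05), with Actb at 0.21 and Rplp0 at -0.28, and of 15 genes induced by dissociation none passed (median -0.07, 2 at an unadjusted p under 0.05), with Hspa1b at -0.69 and Ier3 at 0.40. Of 5 erythroid genes 4 were called lower, namely Hba-a1, Hba-a2, Hbb-bs and Hbb-bt.

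The states of microglia held the members at widely different levels, most of all Hk2 and Gapdh. These levels are given as descriptions with no test, each as the log2 ratio of a state to the other microglia of the same mouse. In D/E-like cells 9 of the 10 members were lower in all 4 mice, and their share of UMIs was 0.259% to 0.343%. The median over the members was -1.02, against 0.23 over 5211 genes compared, of which 28.2% were lower in all 4 mice. Gapdh was at -1.33 (SD 0.10, n = 4), Pgk1 at -1.28 (SD 0.34), Ldha at -1.24 (SD 0.17), Pkm at -1.21 (SD 0.37), Pgam1 at -1.13 (SD 0.13) and Aldoa at -0.91 (SD 0.42). The transporters Slc16a3 and Slc2a1 were at -0.79 (SD 0.44) and -0.67 (SD 0.30), and Pfkl was at -0.36 (SD 0.27). Hk2 went the other way and was higher in all 4 mice, beside 55.6% of all genes compared. It was at 403, 380, 440 and 478 CPM in D/E-like cells, against 261, 254, 246 and 243 CPM in the other microglia of the same mice, a mean log2 ratio of 0.76 (SD 0.19).

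Cluster 5 showed the reverse arrangement. The members took 0.693% to 0.748% of its UMIs, with a median of 0.39 against -0.32 over all genes compared. Gapdh was higher by 0.65 (SD 0.04, n = 4), Pgk1 by 0.50, Pgam1 by 0.48, Aldoa and Pkm each by 0.47, and Ldha by 0.32, each in 4 of 4 mice. Hk2 fell to 111, 102, 101 and 107 CPM, a mean log2 ratio of -1.46 (SD 0.04). Slc2a1 was at -0.69 and Slc16a3 at -0.21, and all 3 were lower in 4 of 4 mice. Of all genes compared, 27.2% were higher and 62.1% lower in all 4 mice. The ratio of Slc16a3 thus lay above the median of all genes compared. In cluster 3, led by inflammatory cytokine genes, Slc2a1 stood out, at 115, 102, 91.5 and 77.3 CPM (0.74, SD 0.06). Slc16a3 (0.26), Hk2 (0.19) and Pfkl (0.06) were also higher in all 4 mice, beside 20.03% of all genes compared. Gapdh (-0.09) and Pgam1 (-0.12) were lower in all 4 mice, beside 47.1%. The ratio of Slc16a3 was larger in cluster 2 (0.31) and in A1-like cells (0.31). In cluster 2, 8 of 10 members were higher in all 4 mice, between 0.12 for Pfkl and 0.37 for Pgam1, beside 35.2% of all genes compared. In A1-like cells 6 members were higher in all 4 mice, beside 45.7% of all genes compared, with Gapdh at 0.42 and Ldha at 0.36. There Hk2 (-0.35), Slc2a1 (-0.20) and Pfkl (-0.19) were lower in all 4 mice, beside 26.6% of all genes compared. Interferon-like cells had 6 members lower in all 4 mice, beside 30.03% of all genes compared, down to -0.34 for Slc16a3, and in cluster 1 the largest mean ratio was 0.10, for Pfkl.

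**Figure D2:**
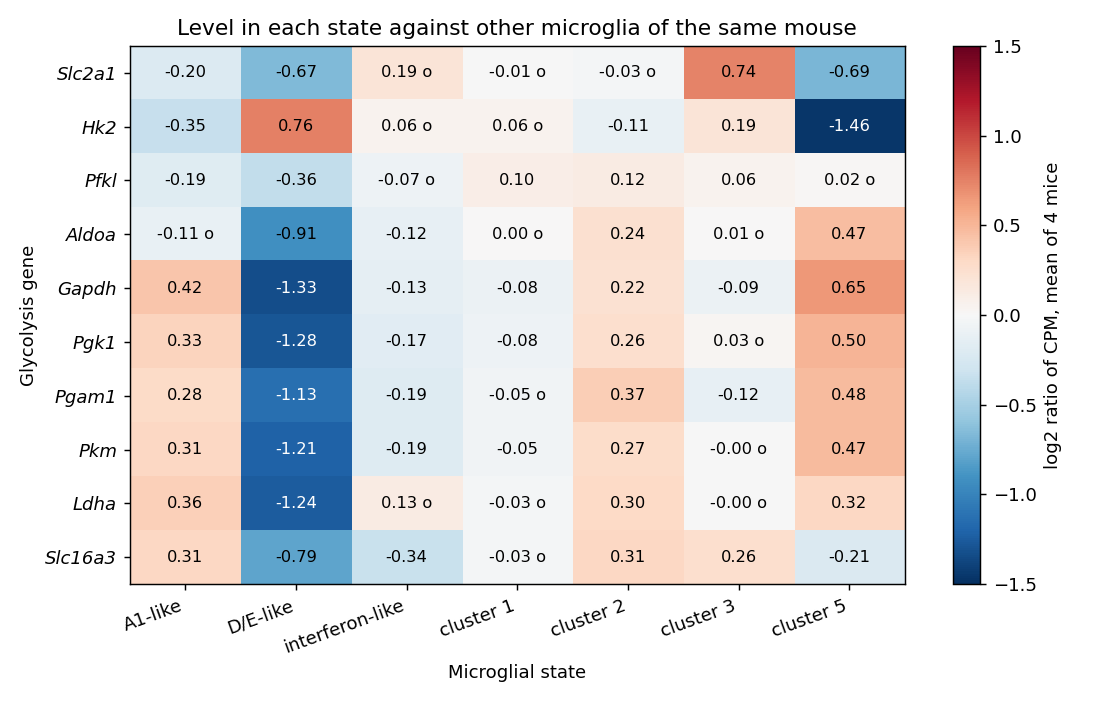
Mean log2 ratio over 4 mice of each glycolysis gene in each microglial state to the other microglia of the same mouse, with "o" beside values whose sign was not the same in all 4 mice. Hk2 is the only member above 0 in D/E-like cells (0.76) and stands at -1.46 in cluster 5, where Gapdh is at 0.65.

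The order of the states for Hk2 was D/E-like (380 to 478 CPM), cluster 3 (290 to 315), interferon-like (262 to 295), cluster 1 (261 to 286), cluster 2 (241 to 270), A1-like (211 to 222) and cluster 5 (101 to 111). The ranges over mice of neighbours from cluster 3 to cluster 2 overlapped, whereas D/E-like cells, A1-like cells and cluster 5 stood clear of their neighbours. The summed dissociation genes followed nearly that order, at 19273 CPM in D/E-like cells, 18267 in cluster 3, 9174 in interferon-like cells, 8846 in cluster 1, 2112 in cluster 2, 6865 in A1-like cells and 776 in cluster 5. In a subdivision of D/E-like cells where that sum was 4165 to 6268 CPM, Hk2 was at 355 to 458 CPM. In the largest subdivision, with a sum of 22765 to 28055 CPM, Hk2 was at 387 to 486 CPM. In the smallest of those compared, with a sum of 16886 to 25284 CPM, it was at 413 to 653 CPM. The part of dissociation in the levels of Hk2 was not tested. For Slc2a1 the order ran from cluster 3 (77.3 to 115 CPM) through interferon-like cells (52.7 to 88.1), cluster 1 (47.1 to 79.4), cluster 2 (48.3 to 76.8) and A1-like cells (43.0 to 69.1) to cluster 5 (34.2 to 49.9) and D/E-like cells (40.3 to 42.4). Every pair of neighbours overlapped there in these ranges, which include the spread between mice. Against the other microglia of the same mouse, Slc2a1 in cluster 3 was higher by 0.69 to 0.83 in all 4 mice. Across the 28 sums of 7 states in 4 mice, centred within each mouse, Hk2 correlated negatively with the mean of the members (Pearson r = -0.50). Slc2a1 stood at 0.52 and Pfkl at 0.77, and the other 7 lay between 0.89 and 0.95. Each gene is itself part of that mean, which raises its r. Taken in pairs with single members, Hk2 ranged from -0.81 with Gapdh to 0.33 with Slc2a1. Pgk1 and Pkm followed each other most closely, at r = 0.99. These are correlations across sums that share mice and libraries, so no p is given. Over the same sums and 5211 genes, the genes outside all lists whose pattern was most like the mean of the members were Ank (r = 0.96), Anxa2 (0.96), Gla (0.95), Lrpap1 (0.95) and Colec12 (0.95). Ank, which moves pyrophosphate out of cells, was at 59.9 to 88.6 CPM in D/E-like cells and at 271 to 312 CPM in cluster 5. Between genotypes in all microglia none of these 5 genes passed in edgeR, with log2 fold changes from -0.16 to 0.21.

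D/E-like cells and cluster 5 were also the shallowest of the states tested, with medians of 3520 and 4373.5 UMIs per cell. The D/E-like cells of each mouse were split into 5 equal groups by their UMIs. From the group with the fewest to that with the most, Hk2 went from 740 to 360 CPM and Gapdh from 508 to 1273 CPM, as means of 4 mice. In cluster 5 the same split gave 118 and 103 CPM for Hk2 and 3782 and 3536 CPM for Gapdh. In each of the 5 depth groups Hk2 was thus higher and Gapdh lower in D/E-like cells than in cluster 5. At 2000 UMIs per cell, Hk2 had a UMI in 50.03% to 58.5% of D/E-like cells and 17.1% to 20.1% of cluster 5 cells (69.8% to 78.7% and 30.5% to 37.0% without thinning). In astrocyte-like cells, which had a median of 2548 UMIs, the unthinned share was at most 6.15% in any mouse. Thinning left out 12.3% to 23.8% of D/E-like cells and 14.8% to 25.1% of cluster 5 cells per mouse. Of the 70 pairs of member and state, 53 had one sign in all 4 mice. After thinning 48 did, and 44 of these were among the 53 with the same sign. None of the 53 turned to the opposite sign in all mice.

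**Figure D3:**
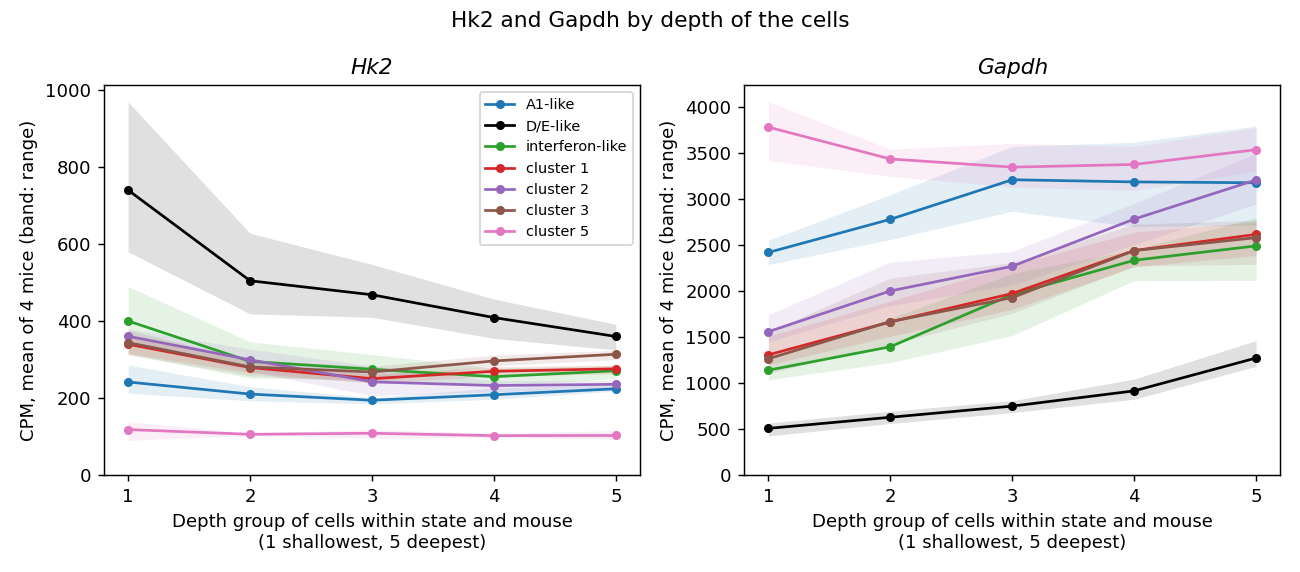
Hk2 and Gapdh in CPM across 5 equal groups of cells ordered by UMIs per cell, for each microglial state, with lines for the mean of 4 mice and bands for their range. Hk2 in D/E-like cells goes from 740 CPM in the shallowest group to 360 CPM in the deepest, and Gapdh from 508 to 1273 CPM.

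Within states the genotypes were then compared in the same way, each state on its own. In each of the 6 states other than D/E-like cells, 8 to 10 of the members had estimates below 0. In A1-like cells all 10 estimates were negative, with a median of -0.29, and 8 had an unadjusted p under 0.05, beside 9.84% of all genes, yet none passed the adjusted threshold in edgeR, where 0.0751% of genes were called. Pkm came nearest, at 1194 and 1155 CPM against 873 and 839 (-0.50, SE 0.08, adjusted p = 0.0735, edgeR). No member passed in cluster 1 (1.75% of genes called), cluster 3 (1.99%) or interferon-like cells (1.26%). At an unadjusted p under 0.05 in edgeR stood 5 members in cluster 1, beside 17.7% of all genes, 4 in cluster 3, beside 15.3%, and 0 in interferon-like cells, beside 9.54%. Slc2a1 was called lower in 2 states. In cluster 5 it was at 49.9 and 45.6 CPM in PRMT1FL mice against 36.7 and 34.2 (-0.56, SE 0.10, edgeR adjusted p = 0.00713), where 4.04% of genes were called and 1.92% called lower. In cluster 2 it was at 76.8 and 69.6 CPM against 58.6 and 48.3 (-0.52, SE 0.11, edgeR adjusted p = 0.0335), where 1.87% of genes were called and 0.668% called lower. The Slc2a1 genotypes did not overlap in either state. The cluster 5 call held when any 1 mouse was left out, while in cluster 2 Slc2a1 lost its call without PRMT1FL mouse 1 (adjusted p = 0.247), without PRMT1FL mouse 2 (0.0731) and without PRMT1Cx3cr1-KO mouse 2 (0.0842), all by edgeR, and also with DESeq2 (0.0680). The erythroid sum moved with the genotype in the cells of cluster 5, at 1787 and 924 CPM in PRMT1FL mice against 0 and 0, with all 5 erythroid genes called lower, and its part in the call was not tested. In cluster 2 it was at most 1.18 CPM in any mouse.

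D/E-like cells stood apart in direction. Of the 10 members, 4 were called higher in PRMT1Cx3cr1-KO mice and none lower, where 17.3% of the 11411 genes tested were called and 9.02% called higher. The median of the members was 0.21 on the log2 scale, against -0.00062 over all genes tested. In CPM, 8 of the 10 had both PRMT1Cx3cr1-KO mice above both PRMT1FL mice, beside 31.2% of all genes. Slc16a3, the lactate exporter, rose from 50.5 and 48.1 CPM in PRMT1FL mice to 74.8 and 86.6 CPM. Its log2 fold change was 0.70 (SE 0.10, edgeR adjusted p = 0.00027). Aldoa rose from 333 and 331 CPM to 477 and 562 CPM (0.63, SE 0.09, edgeR adjusted p = 0.000514). Neither gene overlapped between genotypes, and both kept their call when any 1 mouse was left out.

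Pkm rose from 345 and 308 CPM to 408 and 460 CPM (0.39, SE 0.09, edgeR adjusted p = 0.0104) and Pgk1 from 98.8 and 91.8 to 111 and 139 (0.38, SE 0.10, edgeR adjusted p = 0.0216). Both calls were lost without PRMT1FL mouse 2 (edgeR adjusted p = 0.0645 for Pkm and 0.0540 for Pgk1), and that of Pgk1 also without PRMT1Cx3cr1-KO mouse 2 (0.22, adjusted p = 0.197, edgeR). The Pgk1 call was lost as well at a raised clustering resolution (adjusted p = 0.0636, edgeR), in cells of 2000 to 6000 UMIs (0.0864), after thinning (0.0502) and with DESeq2 (0.0775). Hk2 was the only member higher in this state than in the other microglia. It was at 403 and 380 CPM against 440 and 478 and did not pass (0.21, SE 0.09, edgeR adjusted p = 0.113). Ldha (227 and 212 CPM against 242 and 266), Pgam1 (153 and 139 against 159 and 184) and Pfkl (72.6 and 62.7 against 78.5 and 78.0) had estimates of 0.20, 0.21 and 0.19 that did not pass either. Gapdh, at 926 and 981 CPM against 926 and 1139, and Slc2a1, at 42.4 and 41.3 CPM against 42.0 and 40.3, overlapped between genotypes. With each cell thinned to 2000 UMIs, a UMI of Slc16a3 was found in 8.71% and 8.62% of D/E-like cells of PRMT1FL mice against 13.8% and 15.99% (15.8% and 17.0% against 22.2% and 28.8% without thinning). In astrocyte-like cells at most 1.54% of cells in any mouse had one.

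**Figure D4:**
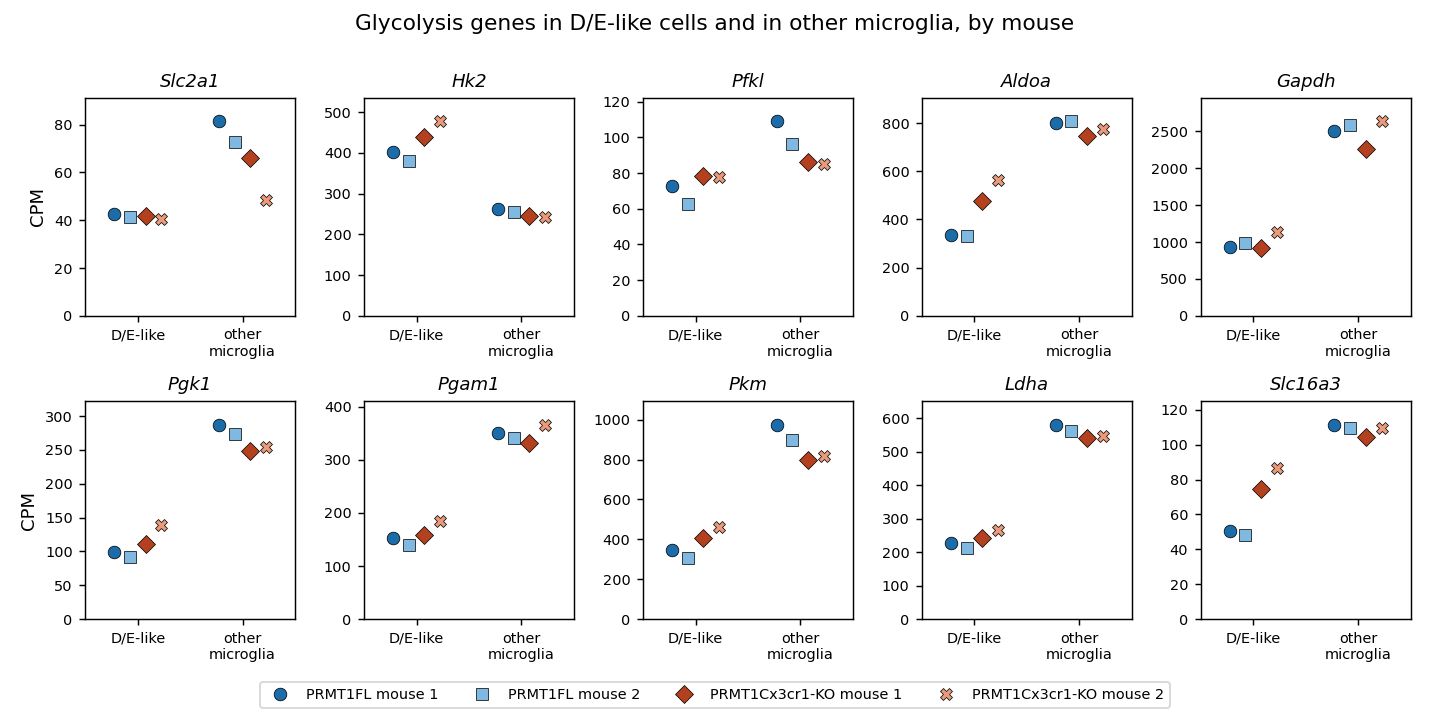
Level of each glycolysis gene in D/E-like cells (left) and in the other microglia (right) of the 4 mice, in CPM, with each point a mouse. In D/E-like cells both PRMT1Cx3cr1-KO mice lie above both PRMT1FL mice for Slc16a3, Aldoa, Pkm and Pgk1, where the difference was called, whereas Slc2a1 lies between 40.3 and 42.4 CPM in all 4.

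Whether the genotype effect itself differed between D/E-like cells and the other microglia was tested with limma voom on 2 sums per mouse, with the mouse as a random block. Of the 10 members, 7 had a more positive effect in D/E-like cells and none a more negative one, where 4.73% of the 13501 genes tested were called and 2.9% called more positive. The median difference was 0.51 on the log2 scale over the members and 0.01 over all genes tested. It was 0.83 for Slc16a3 (SE 0.09, limma voom adjusted p = 0.00185), 0.78 for Aldoa (SE 0.09, adjusted p = 0.00185), 0.69 for Pkm (SE 0.08, adjusted p = 0.00296), 0.62 for Pgk1 (adjusted p = 0.0138) and 0.53 for Pfkl (adjusted p = 0.0123). Hk2 (0.37, adjusted p = 0.0222) and Ldha (0.35, adjusted p = 0.0289) also passed in limma voom. Slc2a1 (0.49, adjusted p = 0.224), Pgam1 (0.28, adjusted p = 0.0906) and Gapdh (0.23, adjusted p = 0.226) did not. All calls were lost without PRMT1FL mouse 1 and without PRMT1FL mouse 2, when the estimates of these 7 stayed between 0.35 and 0.84 and 5 and 8 genes in all were called. In no other state was the effect on any member called different from that in the other microglia by this test. There 0.0227% of genes were called in cluster 3, 0.00759% in cluster 1 and 0% in the other 4. The lowest adjusted p of a member in those states was 0.637, for Pkm in A1-like cells (-0.23, limma voom).

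**Figure D5:**
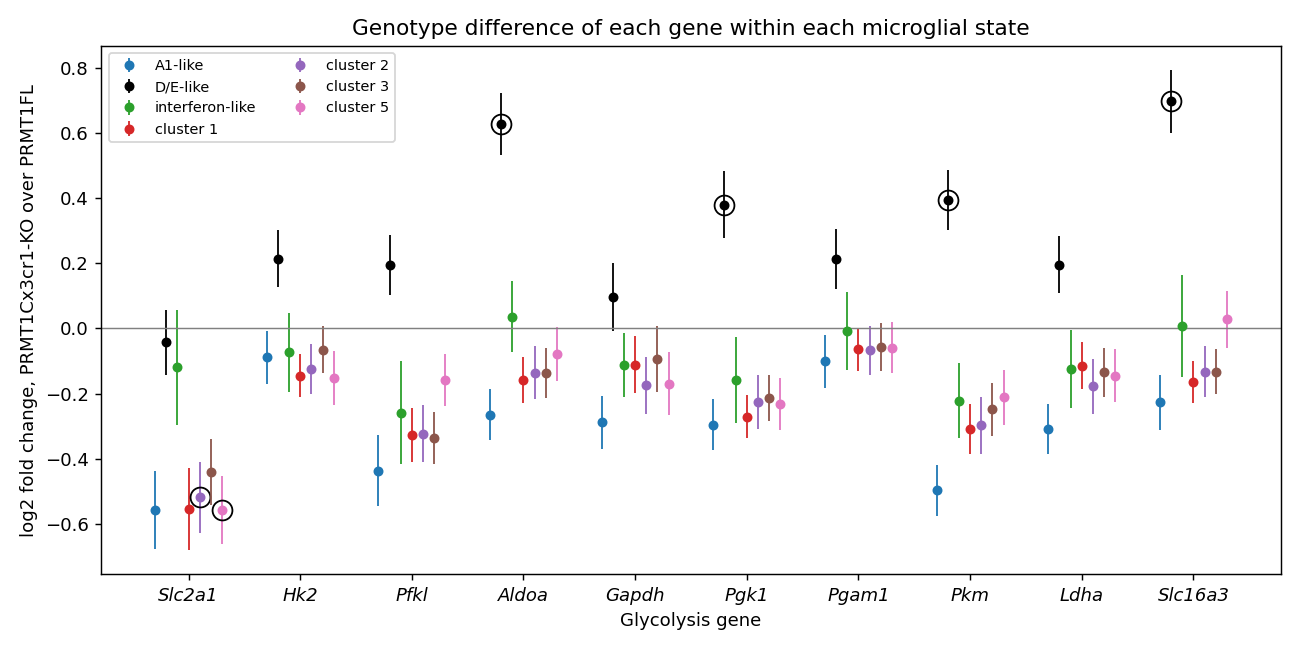
Genotype difference (PRMT1Cx3cr1-KO minus PRMT1FL, log2 fold change) of each glycolysis gene within each microglial state, with bars for the standard error and open circles where the adjusted p was under 0.05. In D/E-like cells Slc16a3 stands at 0.70 and Aldoa at 0.63, while Slc2a1 stands at -0.56 in cluster 5 and -0.52 in cluster 2.

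Other properties of D/E-like cells moved with the genotype. The D markers (Tmem119, Selplg, Siglech, Sox4) summed to 4048 and 4117 CPM in PRMT1FL mice against 2766 and 2395, and the E markers (P2ry12, Sall1, Tnfaip2, Nfkbia) to 3049 and 3038 against 5354 and 5161. The 7 B1 markers summed to 19824 and 18205 CPM against 22533 and 24621, and the 10 microglial markers to 31023 and 32535 against 26798 and 26530. Cells under 2000 UMIs made up 12.9% and 12.3% of D/E-like cells of PRMT1FL mice against 23.8% and 23.0%, although the medians overlapped at 3324 and 3902 against 3255 and 3735 UMIs. Limited to cells of 2000 to 6000 UMIs, the difference between D/E-like cells and other microglia stayed called for Slc16a3 (0.79) and Aldoa (0.66) and for none of the other 5. The share of all genes called there is not given, so that count is not read as specific to the members. The window also changed which cells made up the other microglia. It kept 683 to 1236 of 1435 to 2288 cluster 5 cells per mouse, but only 15 to 46 of 216 to 711 A1-like cells. The 2 largest subdivisions of this state at a finer clustering each showed the rise of Slc16a3, from 48.2 and 47.6 CPM to 73.9 and 81.3 CPM in one and from 50.7 and 45.6 to 74.8 and 101 in the other. In the third, of 42 to 150 cells per mouse, Slc16a3 was at 52.2 and 39.3 CPM against 78.9 and 38.9, and the genotypes overlapped. The summed dissociation genes, 20523 and 16966 CPM against 23106 and 16894, overlapped between genotypes, but single genes of that list moved in opposite directions. Of 15, 5 were called higher (Dusp1, Fos, Fosb, Ier2, Ier3) and 2 lower (Hspa1a, Hspa1b), named after their values were seen, beside 17.3% of all genes called in either direction. In sums over cells, a change within cells and a change in which cells make up the state cannot be told apart, and the part of the marker shifts in these results was not tested.

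Neighbouring pathways were read in the same cells, and their counts stand beside 17.3% of all genes called by edgeR and 9.02% called higher. Of 21 other glycolysis genes tested in D/E-like cells, 4 were called higher and 3 lower, with a median log2 fold change of 0.06. Slc2a6 rose from 9.43 and 11.3 CPM to 25.8 and 34.2 CPM (1.52, SE 0.17, edgeR adjusted p = 3.66e-05). Of 8 pentose phosphate genes, 4 were called higher and none lower. Their effect was also called more positive than in other microglia for 4 of 8 (limma voom), beside 2.9% of all genes. Taldo1 rose from 150 and 158 CPM to 341 and 423 CPM (1.29, SE 0.10, edgeR adjusted p = 3.15e-06) and Pgd from 86.5 and 82.1 to 168 and 211 (1.15, SE 0.10, edgeR adjusted p = 8.54e-06). The other 2, named after their values were seen, were Tkt at 0.44 and G6pdx at 0.81, the latter encoding the enzyme at the entry of the branch. Among genes at the fork of pyruvate, Mpc1 rose from 215 and 234 CPM to 404 and 519 CPM (1.02, SE 0.11, edgeR adjusted p = 3.84e-05), and Pdk1, which restrains pyruvate dehydrogenase, fell from 88.4 and 77.9 to 54.9 and 51.0 CPM (-0.67, SE 0.10, edgeR adjusted p = 0.000338). None of 16 citric acid cycle genes was called in these cells by edgeR, and 3 had an unadjusted p under 0.05, beside 30.7% of all genes. Of 12 HIF family members and regulators 3 were called higher and 2 lower, and of 12 HIF targets outside glycolysis 3 were called higher and none lower. Of 10 reference genes 2 were called higher and none lower, beside that 9.02% of all genes called higher. Their median log2 fold change was 0.13, against -0.00062 over all genes tested.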

How the data were processed

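Libraries were 10x 3′ libraries of sorted brain cells. The authors aligned reads to mm10 with Cell Ranger 3.1.0 (the submitters' processing notes also name Seurat 3.2.0 and Scanpy 1.5.2) and deposited raw UMI counts per gene and cell barcode, without normalization. As in the study's methods, the cells kept had 200 to 6000 genes and no more than 10% of UMIs from mitochondrial genes. Counts were clustered with scanpy 1.11.5 (2000 variable genes, 20 principal components, resolution 0.4), without the members and the other listed glycolysis genes. Also left out were 1414 genes by their genotype difference in sums over all cells. These had an adjusted p under 0.05, or an unadjusted p under 0.05 with an absolute log2 fold change over 1 (edgeR). The other lists, dissociation genes among them, were not left out as lists. Clusters were named only from at least 3 listed markers. An automatic doublet threshold marked at most 0.0245% of barcodes and so did not work. The barcodes with the highest doublet scores, 0.8% per 1000 cells (6.54% to 9.15% per mouse), were therefore marked, kept, and left out in an alternative.

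UMIs were summed per mouse, since the mouse is the replicate, and tested with edgeR 4.0.16 (TMM, filterByExpr, quasi-likelihood test, Benjamini-Hochberg adjustment, threshold 0.05) in R 4.3.3. States with at least 50 cells in each mouse were tested. Differences between states used limma 3.58.1 (voom, mouse as a random block, with the correlation estimated on every 8th gene). Fold changes are log2, PRMT1Cx3cr1-KO over PRMT1FL. CPM are counts scaled to the same total in every sum, without the TMM factor. Microglial sums held 72926464 to 93990853 UMIs, and the counting error of a member was 0.223% to 1.44% of its level, larger than the spread between mice in 3 of 20 pairs of member and genotype (Aldoa in PRMT1FL, Hk2 and Pfkl in PRMT1Cx3cr1-KO). The genotype test over all microglia and, for a single state, the test of the difference between states were run on simulated data first. The other fits were not. Alternatives, DESeq2 1.42.0 among them, are given in the closing section. Nothing in the labels says that equal replicate numbers share a litter or a day, and with 2 pairs no pairing was taken.

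The members and lists were chosen with earlier results of these data known. Named genes are the 10 members, every list gene called in the microglial sums, the 2 genes of each list with the largest absolute log2 fold change at a mean of at least 10 CPM, and the 5 genes outside all lists most like the mean of the members at a mean of at least 20 CPM. Other genes named were chosen after their values were seen.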

Additional observations from a re-analysis of the deposited data

Results flagged for a closer look

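The genotype difference of 7 glycolysis genes was not the same in D/E-like cells as in the other microglia by a test of that difference itself (limma voom, mouse as a random block, 2 mice per genotype). On the log2 scale it was more positive in D/E-like cells by 0.83 for Slc16a3, 0.78 for Aldoa, 0.69 for Pkm, 0.62 for Pgk1, 0.53 for Pfkl, 0.37 for Hk2 and 0.35 for Ldha. None of the 7 was called when either PRMT1FL mouse was left out, and only Slc16a3 and Aldoa were called in cells of 2000 to 6000 UMIs. That window also changed which cells made up the other microglia. For Slc16a3, Aldoa, Pkm and Pgk1 the genotype difference within D/E-like cells was also called. For Pfkl, Hk2 and Ldha it was not, and the test of the difference rests on the lower values in the other microglia as well. All 4 mice enter both arms, and the E marker sum moved from 3049 and 3038 CPM to 5354 and 5161 CPM in the same cells. The part of that shift in these differences was not tested. The 7 values do not stand for 7 separate observations, since they come from the same 8 sums.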

How the results depend on the processing

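In all microglia, 68 genes and 0 members were called. Genes called were 114 with library sums only, 1583 without a filter on low counts, 720 with DESeq2, 749 over all cells, 2722 with the state as a term and 162 with each cell weighted equally, and 4 to 2718 when 1 mouse was left out. Members called were 2 without the filter (Slc2a1, Pfkl), 2 with DESeq2 (Slc2a1, Pkm), 3 with the state as a term (Slc2a1, Gapdh, Pfkl, from several sums per mouse) and 0 to 3 when 1 mouse was left out (3 without PRMT1Cx3cr1-KO mouse 1). Pgam1 turned to 0.021 with library sums and 0.051 with equal weights, where Hk2 was at 0.089, Aldoa at 0.023 and Slc16a3 at 0.097. These 2 scalings moved the median of all genes by 0.07 and 0.06.

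Within states 6 calls of members became 3 to 19 when 1 mouse was left out, and the 4 calls in D/E-like cells became 2 to 5 (2 without PRMT1FL mouse 2). In D/E-like cells Slc2a1 turned to 0.047 without doublets and 0.0076 after thinning and ranged from -0.081 to 0.000995 when 1 mouse was left out, and Gapdh turned to -0.041 in the window of 2000 to 6000 UMIs and ranged from -0.046 to 0.23 when 1 mouse was left out (both turned without PRMT1Cx3cr1-KO mouse 2). The 7 members whose effect differed in D/E-like cells became 0 to 9 when 1 mouse was left out (0 without either PRMT1FL mouse) and 2 in the depth window, where the difference of Gapdh turned to -0.044. With 3 mice the correlation of the 4-mouse fit was reused, and the lone mouse is assumed to vary like the others. The number of all genes called, within states and in the D/E-like test of the difference, also changed when 1 mouse was left out. The counts of member calls in those fits are therefore not read as specific to the members. The depth window also changed which cells made up the other microglia, so its count is not read as specific to the members either. The window, thinning and, within states, library sums and DESeq2 were chosen after seeing the data. The cause of these changes was not tested.

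With the replicate number as a block, 329 genes and 1 member, Slc2a1 (-0.49, adjusted p = 0.0474, edgeR), were called in all microglia, and 15 calls of members within states. Of the 15, 4 fell in A1-like cells and 4 in cluster 1, where all genes called went from 8 to 199 and from 219 to 725. In cluster 3, 1 member was called while all genes called went from 226 to 189. These counts too are not read as specific to the members. Same-numbered mice deviated together at r = 0.24 over 5131 genes, which 2 pairs cannot separate from chance numbering.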

Other observations

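Outside the microglia, Slc2a1 was at 3069 and 2627 CPM in endothelial-like cells of PRMT1FL mice (34 and 16 cells) and at 1788 and 1542 CPM in those of PRMT1Cx3cr1-KO mice (15 and 10 cells). GLUT1 is the glucose transporter of the blood-brain barrier, and Hk2 had 0 UMIs in 3 of these 4 samples and 2 UMIs in PRMT1Cx3cr1-KO mouse 2. Astrocyte-like cells held Slc2a1 at 220, 201, 149 and 153 CPM, with 16 and 6 cells in the PRMT1Cx3cr1-KO mice. Neutrophil-like cells, found in the PRMT1FL mice alone (25 and 46 cells), held Slc16a3 at 408 and 260 CPM, against at most 107 CPM in the summed microglia of the 4 mice. F-like cells, which expressed Mrc1 and other markers of border macrophages, held Hk2 at 239, 266, 221 and 269 CPM and Slc2a1 at 44.2, 32.8, 45.3 and 30.5 CPM in the order of PRMT1FL and PRMT1Cx3cr1-KO mice. They pooled several groups of cells. In the deepest (253 cells, median 12548 UMIs) the microglial markers had a median log2 ratio of -0.21 to all other cells, against -1.16 and -1.60 in the rest. The part of that group in these levels was not tested. The sort was for CD45 and CD11b, so endothelial-like and astrocyte-like cells are rare here and give few UMIs per mouse.

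B1-like cells numbered 23 and 6 for PRMT1FL and 66 and 415 for PRMT1Cx3cr1-KO. Gapdh was at 1363, 1659, 1375 and 1320 CPM in them and Hk2 at 87.2, 87.3, 138 and 220 CPM, the first 2 from 8 and 4 UMIs.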
